A study of Mus musculus with 24 samples.

Results

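The genes described here are the enzymes of de novo lipogenesis, the route by which a cell builds fatty acids from carbohydrate, together with the lipogenic regulator Thrsp. They were taken from the expression table by symbol (Fasn, Acaca, Acacb, Acly, Scd1, Scd2, Elovl6, Thrsp and Me1), and all 9 were found among its 49452 genes. Their mRNA was followed in differentiating brown and white fat cell cultures with or without knockdown of H19, an imprinted long non-coding RNA.

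In this route ATP citrate lyase (Acly) cleaves cytosolic citrate to acetyl-CoA, acetyl-CoA carboxylase turns acetyl-CoA into malonyl-CoA, and fatty acid synthase (Fasn) builds palmitate from both, drawing on NADPH that malic enzyme (Me1) helps to supply. Palmitate is then elongated by Elovl6 and desaturated by the stearoyl-CoA desaturases Scd1 and Scd2. Transcription of these genes is known to be driven by SREBP-1c, ChREBP and liver X receptors under insulin and glucose, and brown fat is known for burning fatty acids for heat while also making them.

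The 24 RNA-seq libraries came from stromal-vascular fraction cells of young male C57BL/6 mice, isolated from brown adipose tissue (BAT) or from epididymal, that is visceral white, adipose tissue (vWAT), and grown in culture. Cells received a non-targeting control siRNA (siCtrl) or an siRNA against H19 (siH19; the labels name a single one, siH19_3) by nucleofection and were collected on day 0 (d0) or day 3 (d3) of differentiation, which gave 8 groups of 3 libraries: BAT siCtrl d0, BAT siCtrl d3, BAT siH19 d0, BAT siH19 d3 and the same 4 for vWAT. All groups shared the nucleofection, so no untransfected cells are among them. The depots differed in medium as well: the protocol names indomethacin and triiodothyronine for BAT. For WAT it names insulin, dexamethasone, rosiglitazone and IBMX, and its wording does not settle whether BAT cells also met any of these. The library codes of BAT and vWAT begin with different numbers, so depot, medium and whatever the codes stand for cannot be told apart. The siRNA had been given by d0, when H19 was already lower, and H19 was still lower at d3. How long this lasted after d3 was not measured. BAT of several animals may have been pooled before plating. The labels do not say whether the 3 libraries of a group came from separate preparations, so p-values measure only the spread between these libraries.

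Expression was given as FPKM, a unit that corrects for library size and gene length, so that levels can be set side by side between genes. Differences were tested on log2(FPKM + 1) across all genes with limma, and a gene was called when the Benjamini-Hochberg adjusted p was under 0.05 and the change at least 1.3-fold. An interaction, the difference between 2 such differences, was called on the adjusted p alone.

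On GRCm38 the genes lie on 6 chromosomes, and each is protein-coding. Fasn spans chr11:120805846-120824547 on the minus strand, Acly chr11:100476353-100528000 on the minus strand and Acaca chr11:84129672-84401651 on the plus strand. Acacb lies at chr5:114146535-114250761 (plus), Elovl6 at chr3:129532355-129638495 (plus), Thrsp at chr7:97412938-97417730 (minus) and Me1 at chr9:86581371-86695953 (minus). Scd2, at chr19:44293676-44306864 on the plus strand, and Scd1, at chr19:44394451-44407709 on the minus strand, lie near each other on the same chromosome. Of the 75-base windows in the coding transcripts of Acaca, 44.2% also occurred in the gene model Gm5182, and 17.6% of those of Me1 in Gm7049 or Gm7329, so how reads were shared with these copies is uncertain. The shares depend on read length, on which the labels and the study's methods differ, and the shorter of the stated lengths was used. Scd1 and Scd2 shared few windows with each other, Scd3, Scd4 or another gene model (3.20% and 1.80% of their windows). Elovl6 shared 2.05% of its windows with other genes, and Fasn, Acacb, Acly and Thrsp shared none.

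RefSeq start windows (GRCm38.p6) were at hand for 7 of the 9 genes, and for 4 of them at least 200 bases lay before the start of the gene. Those 4 are shown for that reason alone, and any tie between their letters and the siRNA differences was not tested. Each is written 5′ to 3′ on the strand of its gene, and capitals mark the CCAAT box (CCAAT, the letters bound by NF-Y) and the GC box (GGGCGG, the letters bound by Sp1) on either strand; in CCAATTGG the forward and reverse matches overlap and count separately.
Fasn, chr11:120824548-120824797, minus strand: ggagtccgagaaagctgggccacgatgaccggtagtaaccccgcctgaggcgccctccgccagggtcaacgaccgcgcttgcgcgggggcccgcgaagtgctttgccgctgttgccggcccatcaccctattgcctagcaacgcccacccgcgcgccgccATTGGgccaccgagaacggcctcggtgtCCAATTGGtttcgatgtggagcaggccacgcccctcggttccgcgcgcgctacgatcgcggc
Acly, chr11:100528001-100528250, minus strand: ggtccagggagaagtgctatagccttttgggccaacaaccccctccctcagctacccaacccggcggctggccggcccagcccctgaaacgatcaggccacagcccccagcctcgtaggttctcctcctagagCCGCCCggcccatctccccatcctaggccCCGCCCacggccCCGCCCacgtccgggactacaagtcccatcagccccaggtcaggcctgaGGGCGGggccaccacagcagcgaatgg
Me1, chr9:86695954-86696164, minus strand: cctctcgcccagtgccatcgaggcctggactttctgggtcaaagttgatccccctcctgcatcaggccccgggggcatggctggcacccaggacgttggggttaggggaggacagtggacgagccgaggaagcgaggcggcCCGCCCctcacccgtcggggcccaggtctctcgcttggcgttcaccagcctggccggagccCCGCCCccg
Elovl6, chr3:129532136-129532354, plus strand: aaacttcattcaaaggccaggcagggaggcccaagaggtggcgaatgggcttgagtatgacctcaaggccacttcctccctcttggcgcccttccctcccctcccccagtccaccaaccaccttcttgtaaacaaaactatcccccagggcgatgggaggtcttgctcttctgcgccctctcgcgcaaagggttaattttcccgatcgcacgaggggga

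The Fasn window held 3 CCAAT matches, and 33.8% of all RefSeq windows of that length held at least 1. Acly had 4 GC boxes and no CCAAT, with GC boxes in 32.7% of windows of its length, and Me1 had 2 GC boxes, with 26.9% of windows of its length holding them. Elovl6 held neither. The E-box letters CACGTG and the sterol-element core TCACNCCA, searched on both strands, had no match in any of the 4 windows, while the nuclear receptor half-site AGGTCA had 1 match each in Acly and Elovl6. These are matches of letters in short windows.

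H19 itself was checked first. In BAT it stood at 108, 160 and 122 FPKM with siCtrl and 2.82, 5.20 and 5.05 with siH19 at d0, and at 99.7, 86.4 and 83.2 against 12.04, 12.15 and 16.9 at d3, which is 15.3% of the siCtrl mean. In vWAT it was lower to begin with, at 12.3, 11.3 and 11.6 FPKM at d0 and 8.67, 8.19 and 8.90 at d3 with siCtrl, and fell to 1.23, 0.630 and 1.76 and to 0.327, 0.291 and 0.966. The fall was called in each of the 4 comparisons. In BAT it was smaller at d3 than at d0, where siH19 left 3.35% of the siCtrl mean (interaction in limma 1.99 ± 0.29, adjusted p = 0.00282). Within BAT siH19, H19 was called higher at d3 than at d0 (1.47 ± 0.22, adjusted p = 0.000861). Replicate libraries correlated at r = 0.988 to 0.991 across genes, and no library stood apart.

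The depots could be told by their markers. Ucp1, the uncoupling protein of brown fat cells, passed 0.1 FPKM in BAT at d3 and stayed below it in every vWAT library, and the mesothelial marker Upk3b stayed below 0.1 in every BAT library. BAT cultures also carried the muscle genes Myod1, Myog and Myh3, which stayed below 0.1 FPKM in vWAT, and the hepatocyte markers Alb, Apoa1 and Ttr together came to at most 0.312 FPKM in any library. The 8 adipocyte markers together rose from 3190 to 3486 FPKM at d0 in BAT siCtrl to 42813 to 44747 at d3, and from 4369.8 to 4398 to 21700.5 to 22675 in vWAT siCtrl. In cultures of mixed cells, fewer cells of a type and less RNA per cell cannot be told apart.

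With differentiation the lipogenic genes rose in BAT. In siCtrl all 9 genes were called higher at d3 than at d0, with 29.9% of genes tested called higher in that comparison. In vWAT siCtrl 8 of the 9 were called higher, all but Elovl6, where 26.3% of genes were. Together the 9 genes rose from 256 ± 8.34 to 6685 ± 143 FPKM (SD, n = 3), 26.1-fold, in BAT siCtrl, and from 799.9 ± 31.4 to 5296 ± 213, 6.62-fold, in vWAT siCtrl. Scd1 made up 22.3% of that sum at d0 and 62.3% at d3 in BAT, whereas in vWAT its share was 63.1% and 64.5%. Fasn, Acaca, Acly, Elovl6 and Me1 together rose 9.73-fold in BAT siCtrl and 5.00-fold in vWAT siCtrl.

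**Figure D1:**
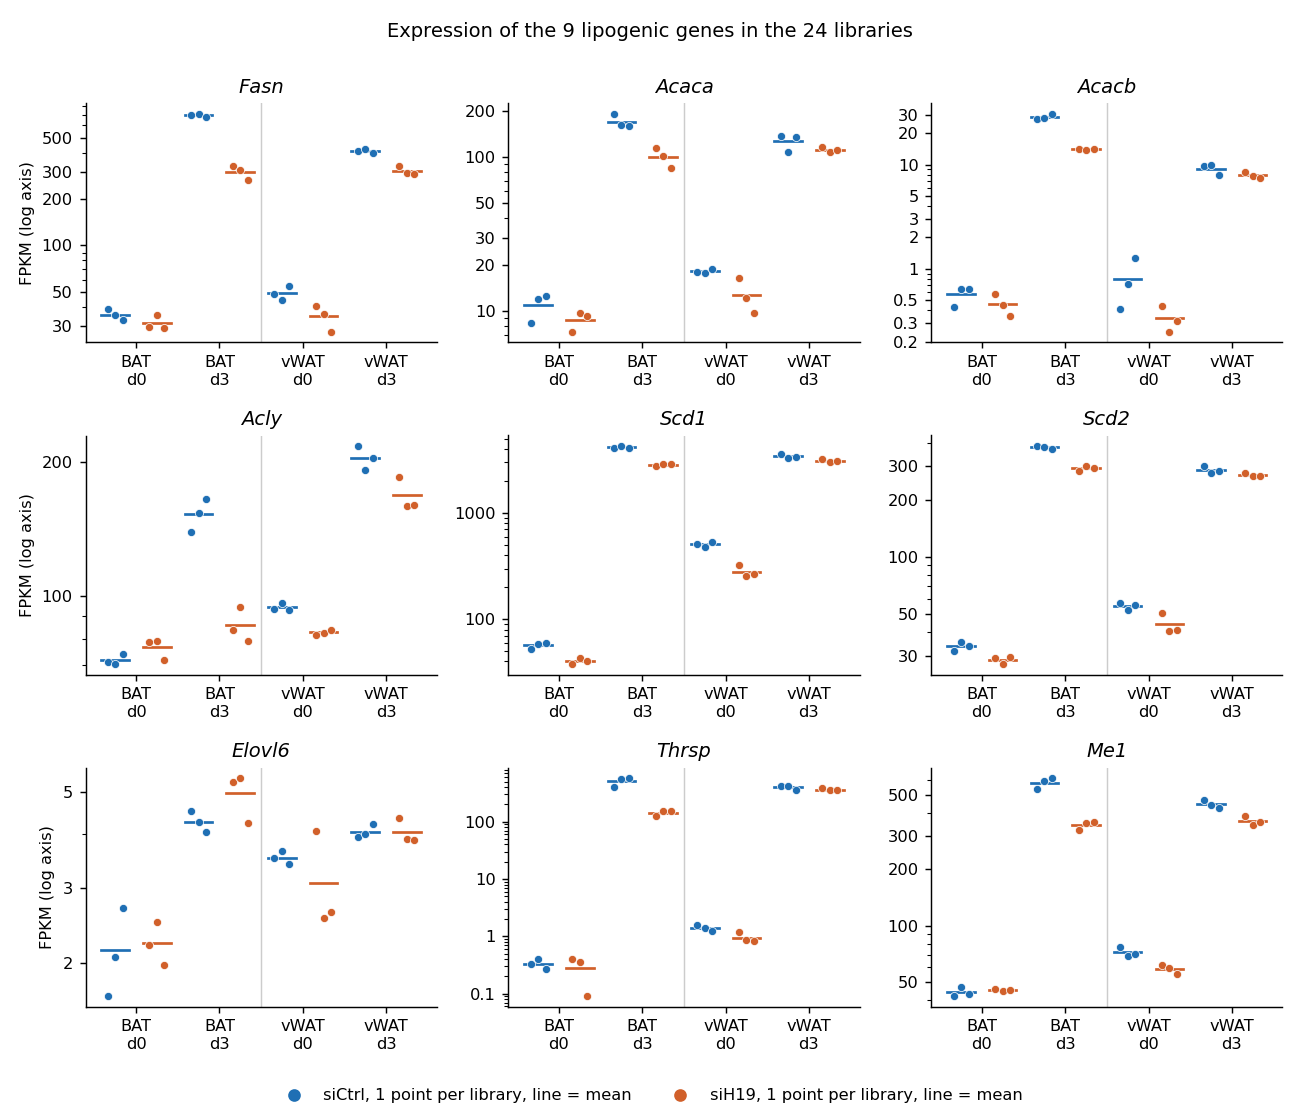
Expression of the 9 lipogenic genes in FPKM on a log axis, 1 panel per gene, with 1 point per library, a line at the mean of the 3 libraries of a group, and colours for siCtrl and siH19. In BAT at d3 the siH19 points lie below all siCtrl points for 8 genes, Elovl6 being the exception, and in vWAT at d3 for 4.

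Thrsp (Spot 14), a small nuclear protein that responds to thyroid hormone and carbohydrate and acts on lipogenesis, had the largest change of the 9. It was nearly silent at d0, at 0.324, 0.410 and 0.266 FPKM in BAT siCtrl, and reached 411, 546 and 567 at d3, a difference of 8.56 ± 0.13 on the log2(FPKM + 1) scale (SE; adjusted p = 2.65e-08). In vWAT siCtrl it went from 1.58, 1.40 and 1.23 to 414, 419.6 and 354 (7.37 ± 0.09, adjusted p = 4.96e-08). In both depots the d3 libraries were far above those of d0. In both siRNA groups of BAT, Thrsp and Acacb passed the expression filter only through their d3 libraries, as did Acacb in vWAT with either siRNA. Some rise was therefore bound to be seen, and these calls add nothing to the counts of genes called higher. Thrsp in vWAT siH19 passed mainly through d3, with a d0 library above 1 FPKM as well.

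Scd1, which introduces the double bond that makes oleate, was the most abundant of the genes at d3 and rose by 6.17 ± 0.06 in BAT siCtrl, from 52.1, 58.9 and 60.3 FPKM to 4135, 4238 and 4128. In vWAT siCtrl it was already at 508, 479.9 and 528 FPKM at d0 and rose by 2.76 ± 0.05. Fasn rose by 4.26 ± 0.06 in BAT and 3.04 ± 0.08 in vWAT, Acaca by 3.85 ± 0.15 and 2.73 ± 0.10, Me1 by 3.68 ± 0.06 and 2.60 ± 0.06 and Scd2 by 3.46 ± 0.05 and 2.36 ± 0.05. Acacb, the carboxylase isoform at the mitochondrial surface, whose malonyl-CoA restrains fatty acid entry for oxidation, rose by 4.25 ± 0.09 in BAT and 2.52 ± 0.18 in vWAT.

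Acly and Elovl6 moved least. Acly rose by 1.07 ± 0.07 in BAT siCtrl and by 1.11 ± 0.05 in vWAT siCtrl, 2.13-fold and 2.17-fold in mean FPKM. Elovl6, which lengthens palmitate to stearate, rose from 1.68, 2.07 and 2.69 FPKM to 4.52, 4.27 and 4.03 in BAT siCtrl (0.76 ± 0.13, adjusted p = 0.00153), while in vWAT siCtrl it stood at 3.51, 3.65 and 3.41 at d0 and 3.93, 3.99 and 4.22 at d3 (0.16 ± 0.07, adjusted p = 0.0913). In FPKM, a level per length, it was the lowest of the 9 genes at d3 in all 4 groups, while at d0 Acacb and Thrsp were lower.

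**Figure D2:**
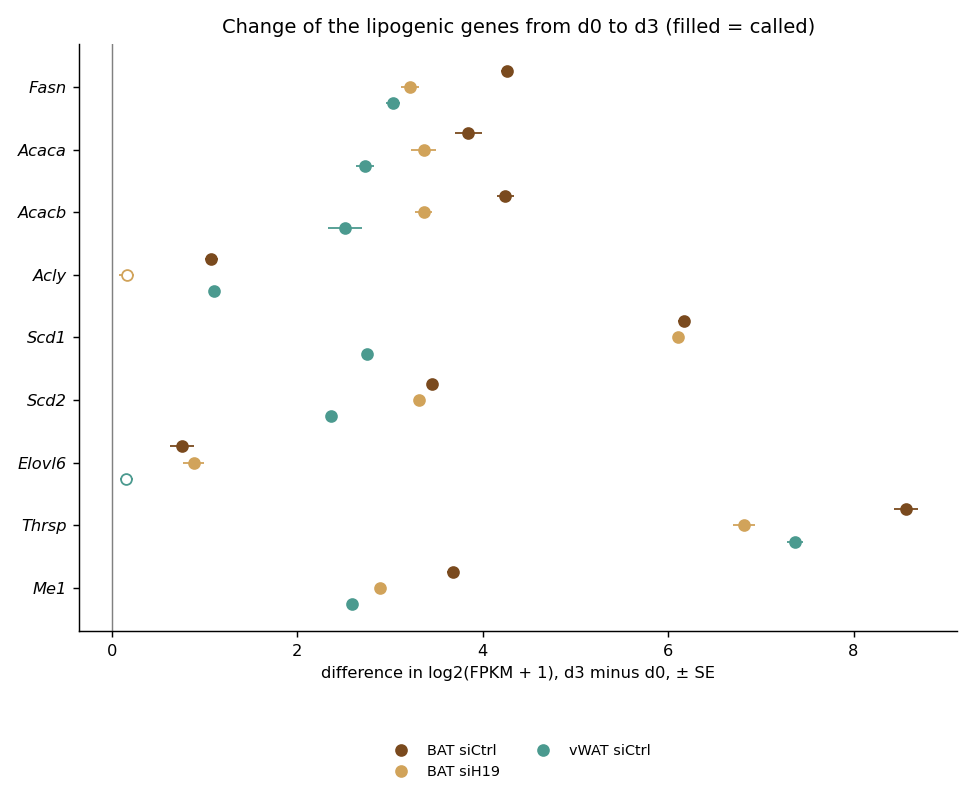
Difference between d3 and d0 on the log2(FPKM + 1) scale for each gene in BAT siCtrl, BAT siH19 and vWAT siCtrl, with bars of 1 SE; filled points were called. Every gene but Acly lies further right in BAT siCtrl than in vWAT siCtrl, and in BAT siH19 Acly lies near 0.

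The rise from d0 to d3 was itself compared between the depots in siCtrl. For 8 of the 9 genes it was called larger in BAT, where 24.9% of genes were called in that direction; Acacb in both depots and Thrsp in BAT entered through their d3 libraries. The difference was largest for Scd1 (3.41 ± 0.08, adjusted p = 4.61e-10), followed by Acacb (1.73 ± 0.22), Fasn (1.22 ± 0.10), Thrsp (1.20 ± 0.17), Acaca (1.11 ± 0.19), Scd2 (1.09 ± 0.07), Me1 (1.08 ± 0.09) and Elovl6 (0.60 ± 0.15). For Acly it was -0.03 ± 0.09 (adjusted p = 0.796).

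Most of the route was lower with siH19 in BAT at d3. With siH19, 7 of the 9 genes were called lower than with siCtrl and none higher, where 2.18% of the 12500 genes tested were called lower, and the median difference of the 9 was -0.76 against 0.05 for all genes tested. All 3 siH19 libraries lay below all 3 siCtrl libraries for 8 genes, as they did for 13.1% of genes tested. The summed FPKM of the set averaged 6685 ± 143 with siCtrl and 4146 ± 79.4 with siH19 (SD, n = 3), a ratio of 0.620. Scaling the libraries to a common median ratio moved the split of calls over all genes from 799 higher and 272 lower to 627 and 410, and under it 8 of the 9 genes were called lower.

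Thrsp changed most, from 411, 546 and 567 FPKM with siCtrl to 128, 151 and 151 with siH19, a fall by 1.81 ± 0.13 on the log2(FPKM + 1) scale (adjusted p = 0.00175) to 28.2% of the siCtrl mean. Fasn went from 704, 708 and 683 FPKM to 326, 308 and 267, that is 43.0% of the siCtrl mean (-1.22 ± 0.07, adjusted p = 0.00134). For both genes the siH19 libraries formed a group of their own, well under the siCtrl range.

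The enzymes that feed Fasn also fell, as did Acacb. Acly, at 139, 154 and 165 FPKM with siCtrl, was at 83.9, 94.5 and 79.0 with siH19 (-0.82 ± 0.09, adjusted p = 0.00314). The main acetyl-CoA carboxylase of lipogenic tissue, Acaca, went from 189, 161 and 159 FPKM to 114, 102 and 85.3 (-0.76 ± 0.12, adjusted p = 0.00864). Its mitochondrial counterpart Acacb went from 27.7, 27.96 and 30.4 to 14.2, 13.7 and 14.1 (-0.98 ± 0.06, adjusted p = 0.00134). Me1 went from 535, 589 and 609.6 FPKM to 325, 352 and 359 (-0.74 ± 0.06, adjusted p = 0.00197). The siRNA groups did not overlap for any of these 4 genes, whose siH19 means were 48.8% to 59.8% of the siCtrl means.

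Downstream of Fasn the changes were smaller. Scd1 fell from 4135, 4238 and 4128 FPKM to 2792, 2901 and 2881 (-0.54 ± 0.03, adjusted p = 0.00134), which left 68.6% of the siCtrl mean. Scd2 stood at 383, 382 and 371 FPKM with siCtrl and 285, 303 and 294 with siH19, and its difference of -0.37 ± 0.04 (adjusted p = 0.00295) came just short of the 1.3-fold minimum; it was called under the median-ratio scaling (-0.42), without BAT siCtrl d3 replicate 3 (-0.38) and without BAT siH19 d3 replicate 2 (-0.39). Elovl6 was at 4.52, 4.27 and 4.03 FPKM with siCtrl and at 5.27, 5.38 and 4.24 with siH19, so the groups overlapped (0.17 ± 0.10, adjusted p = 0.309).

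**Figure D3:**
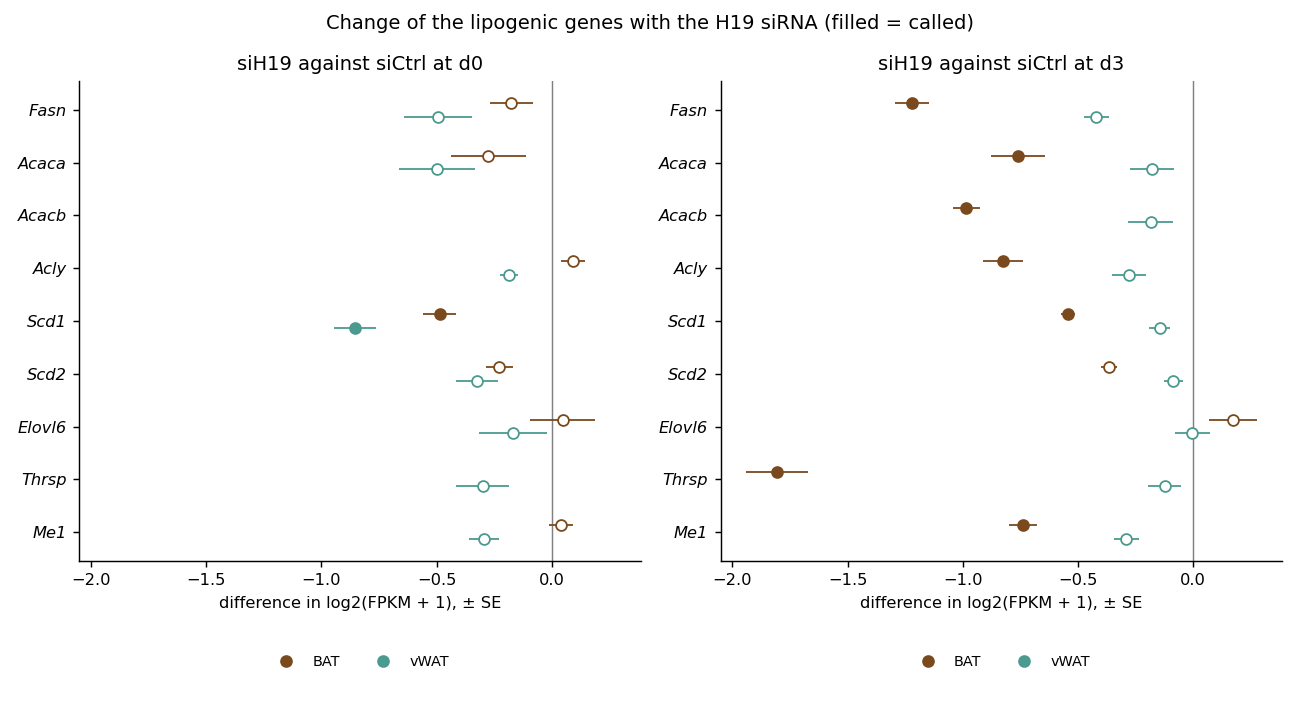
Difference between siH19 and siCtrl on the log2(FPKM + 1) scale for each gene at d0 (left) and d3 (right) in BAT and vWAT, with bars of 1 SE; filled points were called, and a gene below the expression filter has no point. At d3 the BAT points of 7 genes are filled and reach -1.81 for Thrsp, while the vWAT points lie between -0.42 and 0.00; at d0 the Scd1 points are the filled ones.

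Other features of the BAT cultures moved at the same time. The 5 precursor markers summed to 277 to 316 FPKM with siCtrl and 495 to 527 with siH19 at d3, and 3 of the 4 tested were called higher, with 6.39% of genes called in that direction. The 5 brown markers summed to 53.3 to 64.2 FPKM with siCtrl and 28.3 to 29.7 with siH19, with Cidea (-1.95 ± 0.16), Ucp1 (-1.75 ± 0.24) and the coactivator Ppargc1a (-0.81 ± 0.13) called lower. The 8 adipocyte markers summed to 42813 to 44747 FPKM against 38565 to 41113, and 1 of 8, the lipase Pnpla2 (-0.39 ± 0.05), was called lower. Their median was -0.16 beside -0.76 for the lipogenic genes. Of all genes tested, 2.18% were called lower. The muscle list summed to 36.1 to 46.2 FPKM against 51.1 to 59.2, with Des called higher, and the macrophage list to 10.2 to 10.5 against 7.20 to 7.49, with Adgre1 called lower. The part of these features in the lipogenic result was not tested.

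In vWAT at d3 none of the 9 genes was called, and over all 13097 genes tested 4 were called in either direction, 0.0305%. Of the 9 genes, 4 had an unadjusted p under 0.05, and the same 4, Fasn, Acly, Scd1 and Me1, had all siH19 libraries below all siCtrl libraries, against 8.57% of genes tested. Fasn was at 407, 420.2 and 394 FPKM with siCtrl and 328, 296 and 290.2 with siH19 (-0.42 ± 0.05, adjusted p = 0.152). Me1 was at 466, 441 and 422 against 384, 344 and 359 (-0.29 ± 0.05, adjusted p = 0.277), and Acly at 216, 191 and 204 against 185, 159 and 159.8 (-0.28 ± 0.07, adjusted p = 0.360). These siH19 means were 74.8% to 82.4% of the siCtrl means.

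For the other vWAT genes the distance was smaller still. Scd1 read 3585, 3289 and 3379.9 FPKM with siCtrl and 3226, 2994 and 3055 with siH19 (-0.14 ± 0.04, adjusted p = 0.390). Scd2 read 302, 277 and 285 against 277, 268 and 269. Thrsp read 414, 419.6 and 354 FPKM against 382, 354 and 352 (-0.12 ± 0.07, adjusted p = 0.631), with overlapping groups, as for Scd2. Acaca (138, 108 and 135 against 116, 107 and 111.5 FPKM), Acacb (9.59, 9.86 and 7.90 against 8.51, 7.79 and 7.38) and Elovl6 (3.93, 3.99 and 4.22 against 4.36, 3.89 and 3.87) also overlapped. The 8 adipocyte markers had a median difference of 0.07 in this comparison and the 9 lipogenic genes -0.18, beside -0.01 for all genes tested.

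Whether the siRNA difference at d3 was larger in BAT than in vWAT was tested directly. It was for 7 of the 9 genes, where 3.52% of genes tested were called in that direction: Thrsp (-1.68 ± 0.17, adjusted p = 0.00135), Fasn (-0.80 ± 0.10, adjusted p = 0.00170), Acacb (-0.80 ± 0.11, adjusted p = 0.00274), Acly (-0.54 ± 0.12, adjusted p = 0.0205), Me1 (-0.45 ± 0.09, adjusted p = 0.0104), Scd1 (-0.40 ± 0.05, adjusted p = 0.00231) and Scd2 (-0.28 ± 0.05, adjusted p = 0.00853). Acaca came close (-0.58 ± 0.17, adjusted p = 0.0523) and was called once libraries were scaled by the median ratio (adjusted p = 0.0375) or BAT siH19 d3 replicate 1 was left out (adjusted p = 0.0361). Acly was not called without BAT siCtrl d3 replicate 2 (adjusted p = 0.0500). Over all genes the calls were 966 higher and 485 lower, and 635 and 759 under the scaling. Of the 8 adipocyte markers 7 were also called lower in this test, with a median of -0.27 beside -0.54 for the lipogenic genes.

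At d0, before induction, Scd1 was the single lipogenic gene called, and it was lower with siH19 in both depots. In BAT it read 52.1, 58.9 and 60.3 FPKM with siCtrl and 38.1, 42.7 and 40.6 with siH19 (-0.49 ± 0.07, adjusted p = 0.0287), where 1.32% of genes were called lower. In vWAT it read 508, 479.9 and 528 against 321, 255 and 265 (-0.85 ± 0.09, adjusted p = 0.0118), where 1.20% were. The groups did not overlap in either depot. The BAT call was lost when any 1 of the 6 libraries was left out (adjusted p = 0.0601 to 0.102), and the vWAT call without siCtrl d0 replicate 2 or 3 (adjusted p = 0.0622 and 0.0572).

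In BAT at d0 the other genes were little apart between the siRNAs. Fasn read 38.5, 35.5 and 32.8 FPKM with siCtrl and 29.8, 35.4 and 29.1 with siH19, Me1 42.3, 46.9 and 43.5 against 46.2, 44.9 and 45.6, and Acly 71.0, 70.4 and 74.0 against 78.7, 79.3 and 71.8. Each of these overlapped, as did Acaca (8.46, 11.96 and 12.498 against 7.39, 9.80 and 9.28) and Elovl6 (1.68, 2.07 and 2.69 against 2.21, 2.497 and 1.98). Scd2 (32.0, 35.3 and 33.6 against 29.1, 27.2 and 29.4) and Scd1 were the 2 genes whose siH19 libraries all lay below siCtrl, where 16.1% of genes tested did so. Acacb (0.43, 0.64 and 0.64 against 0.57, 0.45 and 0.35) and Thrsp (0.32, 0.41 and 0.27 against 0.40, 0.35 and 0.09) were under the filter of 1 FPKM and were not tested.

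In vWAT at d0, 7 of the 9 genes had every siH19 library below every siCtrl library, against 16.2% of genes tested, and the same 7 had an unadjusted p under 0.05. Fasn read 48.2, 44.2 and 54.5 FPKM against 40.7, 36.02 and 27.7 (-0.49 ± 0.15, adjusted p = 0.161), Acaca 17.9, 17.7 and 18.9 against 16.5, 12.2 and 9.80 (-0.50 ± 0.17, adjusted p = 0.197), and Me1 77.5, 69.2 and 70.8 against 61.8, 59.5 and 55.4 (-0.29 ± 0.06, adjusted p = 0.0814). Acly (93.2, 96.4 and 92.9 against 81.7, 82.6 and 83.8), Scd2 (57.3, 52.3 and 56.0 against 50.5, 40.5 and 41.2) and Thrsp (1.58, 1.40 and 1.23 against 1.18, 0.85 and 0.84) were likewise lower without a call, Thrsp having passed the filter mainly through siCtrl. Elovl6 (3.51, 3.65 and 3.41 against 4.05, 2.55 and 2.63) and the untested Acacb (0.41, 0.71 and 1.27 against 0.44, 0.25 and 0.32) overlapped.

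At this time point the adipocyte markers moved further than the lipogenic genes. Of 8, 5 were called lower in BAT (median -0.88, with Adipoq at -1.30 ± 0.17 and the hormone-sensitive lipase Lipe at -1.07 ± 0.12) and 6 in vWAT (median -0.81), beside medians of -0.18 and -0.31 for the lipogenic genes tested. The adipocyte markers summed to 3190 to 3486 FPKM with siCtrl and 1624 to 2172 with siH19 in BAT, and 4369.8 to 4398 against 2564 to 2905 in vWAT. In these d0 comparisons 1.32% of genes tested were called lower in BAT and 1.20% in vWAT. The siRNA difference at d0 was not called different between the depots for any of the 8 lipogenic genes tested; limma called 1.02% of genes there, 3 of the 8 had an unadjusted p under 0.05, and Acly was called without BAT siH19 d0 replicate 3 (0.32).

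The siRNA difference at d3 was then set against that at d0, a test that shares its libraries with those above. In BAT 5 genes were called, where 1.27% of genes were called lower. They were Fasn (-1.04 ± 0.13), Acly (-0.92 ± 0.11), Me1 (-0.78 ± 0.08), Thrsp (-1.74 ± 0.19) and Acacb (-0.88 ± 0.12). At d0 the siRNA difference in BAT was -0.18 for Fasn, 0.09 for Acly and 0.04 for Me1, without a call. Thrsp and Acacb lay below 1 FPKM in every BAT library at d0, where their siRNA difference is held near 0 on the log2(FPKM + 1) scale, so for these 2 genes the values restate the difference at d3, and neither was called with a pseudocount of 0.1 (adjusted p = 0.0550 and 0.0677). Over all genes the calls were 1058 higher and 172 lower, and 524 and 334 under the median-ratio scaling. For Scd1 the difference between the days was -0.06 ± 0.08 (adjusted p = 0.715), its rise being 6.17 ± 0.06 with siCtrl and 6.11 ± 0.05 with siH19. In vWAT Scd1 was the single gene called, in the other direction (0.71 ± 0.11, adjusted p = 0.00990; 1.46% of genes called higher), its siRNA difference being -0.85 at d0 and -0.14 at d3; Scd2 joined it without vWAT siH19 d0 replicate 1 (0.34).

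With siH19, 8 of 9 genes were called higher at d3 than at d0 in BAT (30.8% of genes tested) and 8 of 9 in vWAT (28.2%). Thrsp and Acacb in BAT, and Acacb in vWAT, were among them only through the filter at d3, and Thrsp in vWAT mainly so. Without any 1 d3 library the counts were 6 in BAT and 7 in vWAT. In BAT the exception was Acly, at 78.7, 79.3 and 71.8 FPKM at d0 and 83.9, 94.5 and 79.0 at d3 (0.16 ± 0.08, adjusted p = 0.106), whereas in vWAT siH19 it rose by 1.01 ± 0.07. The vWAT exception was Elovl6, as in siCtrl (0.32 ± 0.15, adjusted p = 0.0969), which was called without vWAT siH19 d0 replicate 1 (0.49). The summed level of the 9 genes rose 17.7-fold in BAT siH19 and 9.04-fold in vWAT siH19.

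The depots were compared at each day and siRNA, with the limit that medium and library code went with depot. In siCtrl at d0, all 8 genes tested were called lower in BAT, Acacb being below the filter and Thrsp passing only through vWAT, and 21.0% of genes tested were called lower. Scd1 stood far apart, at 52.1 to 60.3 FPKM in BAT and 479.9 to 528 in vWAT (-3.12 ± 0.07, adjusted p = 5.65e-07). The other 7 differences ran from -0.85 ± 0.10 (Thrsp) to -0.39 ± 0.04 (Acly), and those of Fasn (-0.45 ± 0.09) and Acly were not called under the median-ratio scaling (-0.32 and -0.26), which moved the median of all genes by 0.11 here, by 0.12 in siCtrl at d3 and by 0.10 in siH19 at d0. The calls over all genes went with it from 1343 higher and 2753 lower to 1833 and 1956 here, from 2162 and 4216 to 2801 and 3347 in siCtrl at d3, and from 1282 and 2690 to 1727 and 2016 in siH19 at d0. The Fasn call was also lost without vWAT siCtrl d0 replicate 3 (-0.37) and the Acly call without BAT siCtrl d0 replicate 1 or 2 or vWAT siCtrl d0 replicate 2 (-0.38 to -0.37).

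By d3 the siCtrl order had turned for most genes. In BAT 5 genes were called higher, with 16.5% of genes called in that direction, namely Acacb (1.56 ± 0.09), Fasn (0.78 ± 0.04), Acaca (0.42 ± 0.11), Scd2 (0.39 ± 0.04) and Me1 (0.38 ± 0.06). Acly was called lower (-0.42 ± 0.07), with 32.1% of genes called lower, and was not called under the scaling (-0.28). Scd1 (0.29 ± 0.04) and Thrsp (0.35 ± 0.13) were not called, and were under that scaling (0.42 and 0.48), Thrsp also without BAT siCtrl d3 replicate 1 (0.49). Without vWAT siCtrl d3 replicate 2 the calls of Acaca (0.31), Scd2 (0.37) and Me1 (0.38) were lost, which left 3. Acaca (0.34) and Acly (-0.35) were also lost without BAT siCtrl d3 replicate 1, Acly without vWAT siCtrl d3 replicate 1 (-0.37), and Me1 without BAT siCtrl d3 replicate 2 or 3 or vWAT siCtrl d3 replicate 3 (0.34 to 0.37).

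In siH19 at d3 the depot differences were smaller than in siCtrl for Fasn, Acaca, Acacb, Scd1, Scd2 and Me1 and larger for Thrsp, Acly and Elovl6, a contrast already tested above as the siRNA difference between depots. Fasn averaged 300.2 FPKM in BAT siH19 and 305 in vWAT siH19 (-0.02 ± 0.08, adjusted p = 0.826), and Me1 345 and 362 (-0.07 ± 0.06). Acacb was still called higher in BAT (0.76 ± 0.07; 15.9% of genes called higher), and Acly (-0.96 ± 0.09) and Thrsp (-1.34 ± 0.08) were called lower (25.2% of genes). At d0 with siH19, Scd1 (-2.76 ± 0.09) and Scd2 (-0.60 ± 0.09) were called lower in BAT, with 20.6% of genes called lower, and Acaca (-0.64) and Me1 (-0.41) joined them without vWAT siH19 d0 replicate 3. These comparisons use the same libraries as the siRNA comparisons above.

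Ordering the 8 groups by level gave a similar picture for Fasn, Scd1 and Me1: BAT siCtrl d3 at the top, then vWAT siCtrl d3, then vWAT siH19 d3 and BAT siH19 d3, then the d0 groups led by vWAT siCtrl. In the Fasn and Me1 orders vWAT siH19 d3 and BAT siH19 d3 overlapped, while in the Scd1 order each group stood apart from its neighbours. Thrsp overlapped between BAT siCtrl d3 and vWAT siCtrl d3, and between vWAT siCtrl d3 and vWAT siH19 d3, with BAT siH19 d3 (143 FPKM) apart under them (363 FPKM in vWAT siH19 d3). Acly was led by vWAT siCtrl d3 (204 FPKM) and vWAT siH19 d3 (168), the latter overlapping BAT siCtrl d3 (153). Elovl6 had the 4 d3 groups overlapping in a row.

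The balance between paralogues was followed as a ratio of FPKM. Scd1 exceeded Scd2 1.70 ± 0.0851 times in BAT siCtrl at d0 and 11.001 ± 0.184 times at d3, and 9.16 ± 0.285 and 11.9 ± 0.0226 times in vWAT siCtrl (SD, n = 3). With siH19 the ratio was 1.42 ± 0.134 and 9.73 ± 0.119 in BAT and 6.36 ± 0.0717 and 11.4 ± 0.249 in vWAT, below siCtrl without overlap in all 4 pairs. Acaca exceeded Acacb 19.4 ± 0.539 times at d0 and 5.94 ± 0.825 times at d3 in BAT siCtrl, and 27.8 ± 14.7 and 14.2 ± 3.12 times in vWAT siCtrl. With siH19 it did so 20.4 ± 6.94 and 7.17 ± 1.00 times in BAT and 39.2 ± 9.09 and 14.2 ± 0.817 times in vWAT. The d0 ratios divide by Acacb levels of 0.249 to 1.27 FPKM, and at d3 the depots did not overlap with either siRNA. The tests were run on log2 ratios of FPKM + 1, which for Acaca to Acacb at d0 are lower than those without the added 1: d3 against d0 in BAT siCtrl overlapped on that scale (exact permutation p = 0.2) though not in FPKM. Two-sided exact permutation tests, which with groups of 3 cannot give a p below 0.1, reached that value for each pair without overlap on the tested scale (Benjamini-Hochberg adjusted p = 0.141 over 24 tests), so no ratio could pass 0.05.

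Regulators of the route, both transcription factors and other proteins, were described from a list of 15 genes. In BAT at d3 their median difference between siH19 and siCtrl was -0.22, beside 0.05 for all genes. With siH19, 3 of the 15 were called lower and none higher, where 2.18% of genes tested were called lower. They were Mid1ip1, the partner protein of Thrsp that binds acetyl-CoA carboxylase (43.6, 50.4 and 53.8 FPKM against 25.3, 29.1 and 24.1; -0.89 ± 0.10, adjusted p = 0.00384), Mlxipl, which encodes ChREBP (29.9, 30.1 and 35.5 against 18.2, 18.5 and 18.9; -0.75 ± 0.08, adjusted p = 0.00308), and Srebf1, which encodes SREBP-1 (464, 493 and 471 against 348, 365 and 344; -0.43 ± 0.04, adjusted p = 0.0026). None of their siRNA groups overlapped. Nr1h3, the liver X receptor alpha gene, differed by -0.22 ± 0.11 (adjusted p = 0.213), Pparg by 0.00 ± 0.06 and Cebpa by -0.13 ± 0.04 (adjusted p = 0.0969). In vWAT at d3 Srebf1 (444, 394 and 397 against 402, 420.2 and 419 FPKM) and Mlxipl (20.3, 20.7 and 20.5 against 21.4, 18.4 and 20.6) overlapped. None of the 15 was called there, and 0.0305% of genes tested were. The siRNA difference was called larger in BAT for Mid1ip1 (-0.80 ± 0.11), Mlxipl (-0.72 ± 0.10) and Srebf1 (-0.44 ± 0.07). That test called 3.52% of genes lower.

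At d0 the regulators called were others in part. In BAT Cebpa (-0.85 ± 0.08) and Pparg (-0.60 ± 0.05), the factors at the head of adipogenesis, were called lower with siH19, and Srebf1 was not (-0.30 ± 0.07, adjusted p = 0.0742). In vWAT 4 of 15 were called lower, with Mlxipl (-1.02 ± 0.17, adjusted p = 0.0446), Srebf1 (-0.50 ± 0.08, adjusted p = 0.0355) and Pparg (-0.46 ± 0.05) among them. Of genes tested at d0, 1.32% were called lower with siH19 in BAT and 1.20% in vWAT. From d0 to d3 in siCtrl, 11 of the 15 were called higher in BAT, with 29.9% of all genes called higher, led by Mlxipl (4.22 ± 0.14), which passed the filter only through d3, Nr1h3 (3.82 ± 0.22) and Insig1 (3.79 ± 0.04), and 10 in vWAT, with 26.3% of all genes called higher, led by Nr1h3 (2.09 ± 0.10), Mlxipl (1.98 ± 0.11) and Srebf1 (1.67 ± 0.08). The thyroid hormone receptor Thra in BAT (-1.004 ± 0.042; 35.3% of genes called lower) and the SREBP escort Scap in vWAT (-0.61 ± 0.13; 23.9% called lower) were called lower.

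Of 16 genes tested that supply acetyl-CoA and NADPH, 7 were called lower with siH19 in BAT at d3, 1 was called higher and 8 were not called, with a median of -0.31. Over all genes 2.18% were called lower and 6.39% higher. Acss2, which makes acetyl-CoA from acetate, went from 70.1, 78.3 and 78.6 FPKM to 35.7, 41.1 and 39.1 (-0.95 ± 0.07, adjusted p = 0.00185), the insulin-responsive glucose transporter gene Slc2a4 fell by 0.83 ± 0.07, and Slc25a1, the citrate carrier of mitochondria, went from 346, 376 and 376 FPKM to 243, 243 and 265 (-0.55 ± 0.05, adjusted p = 0.00287). Slc2a1, the basal glucose transporter gene, was the one called higher (0.41 ± 0.10, adjusted p = 0.0421). In vWAT at d3 none of 16 was called, Acss2 reading -0.34 ± 0.07 (adjusted p = 0.302) and Slc25a1 -0.24 ± 0.05 (adjusted p = 0.277). Of genes tested there, 0.0305% were called. For d3 against d0 in siCtrl, 29.9% of genes tested were called higher in BAT and 26.3% in vWAT, with 35.3% and 23.9% called lower. From d0 to d3 in siCtrl 15 of 16 were called higher in BAT, led by Slc2a4 (4.85 ± 0.08), Acss2 (4.10 ± 0.08) and Pdhb (3.85 ± 0.04), and 13 in vWAT, led by Slc2a4 (3.34 ± 0.21; at 1 FPKM or more in 2 of 3 libraries at d0), Acss2 (3.19 ± 0.10) and Slc25a1 (2.24 ± 0.05), while Slc2a1 was called lower in both (-2.26 ± 0.09 and -2.29 ± 0.08) and hexokinase gene Hk2 in vWAT (-1.85 ± 0.08).

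Among the other elongases and desaturases, 3 of 14 tested were called lower with siH19 in BAT at d3 and 1 higher, with a median of -0.12. That comparison called 2.18% of genes tested lower and 6.39% higher. Scd3 (-0.76 ± 0.11, adjusted p = 0.00768), a minor stearoyl-CoA desaturase, the very-long-chain elongase Elovl3 (-0.68 ± 0.06) and the reductase Tecr (-0.42 ± 0.08) were lower, and the dehydratase Hacd4 (0.40 ± 0.07) was higher. None of 14 was called in vWAT, where 0.0305% of genes tested were. In the test of the siRNA difference between depots, 3 of these genes were called lower in BAT and 3 higher, beside 7 lower and 1 higher of the 16 supply genes. Of all 13762 genes in that test, 485 (3.52%) were called lower and 966 higher. In siCtrl, Elovl3 had the largest value of the list for d3 against d0, 8.74 ± 0.08 in BAT and 6.63 ± 0.08 in vWAT; it lay below 0.4 FPKM in each of these d0 libraries and passed the filter only through d3. Next came Elovl4 (3.61 ± 0.14 and 3.01 ± 0.13), with Hacd2 (3.21 ± 0.06) following in BAT and Hsd17b12 (2.06 ± 0.03) in vWAT. In BAT Hacd4 (-1.15 ± 0.06) and Elovl1 (-0.84 ± 0.06) were called lower.

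The mitochondrial route of fatty acid synthesis, which makes the precursor of lipoate and uses separate enzymes, had 6 genes, none of which was called with siH19 at d3 in BAT (median -0.27) or vWAT (median 0.07), while 3 of the 6 were called lower in BAT in the test of the siRNA difference between depots. All 6 were called higher at d3 in siCtrl in each depot, led by the acyl carrier Ndufab1 (2.68 ± 0.05 and 1.33 ± 0.07) and Cbr4 (2.12 ± 0.05 and 1.25 ± 0.08), followed by Mecr in BAT (2.02 ± 0.08) and Hsd17b8 in vWAT (1.11 ± 0.09). The test between depots called 3.52% of genes lower. From d0 to d3 in siCtrl, 29.9% of genes were called higher and 35.3% lower in BAT, and 26.3% higher in vWAT. Of the AMP-activated kinase subunits and Stk11, the kinase system that phosphorylates and inhibits acetyl-CoA carboxylase, 1 of 7 tested, Prkab2 (0.41 ± 0.08, adjusted p = 0.0165), was called higher with siH19 in BAT at d3 and none of 6 in vWAT. In that BAT comparison 6.39% of genes tested were called higher. In siCtrl Prkaa2 (1.73 ± 0.08, through the filter at d3 only), Prkag2 (0.67 ± 0.07) and Prkaa1 (0.61 ± 0.06) led the 4 called higher from d0 to d3 in BAT, where Prkab1 (-0.74 ± 0.06) and Prkab2 (-0.73 ± 0.10) were called lower, and Prkag2 was called higher in vWAT (0.70 ± 0.12).

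Since Thrsp is named for its response to thyroid hormone, which was in the BAT medium, further genes known to respond to it were read. Hr stood at 1.55, 1.05 and 1.59 FPKM in BAT siCtrl d3 and 2.23, 1.35 and 1.29 in BAT siH19 d3 (0.12 ± 0.17, adjusted p = 0.682). Klf9 stood at 42.6, 41.2 and 39.0 FPKM and 43.9, 44.2 and 41.8 (0.08 ± 0.05, adjusted p = 0.344). Both overlapped between the siRNAs, and Dio1 was below the filter. From d0 to d3 in siCtrl Klf9 was called higher in BAT (0.43 ± 0.05) and vWAT (0.88 ± 0.04) and Hr lower (-0.82 ± 0.12 and -1.06 ± 0.15). Of all genes tested there, 29.9% were called higher and 35.3% lower in BAT, and 26.3% and 23.9% in vWAT.

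**Figure D4:**
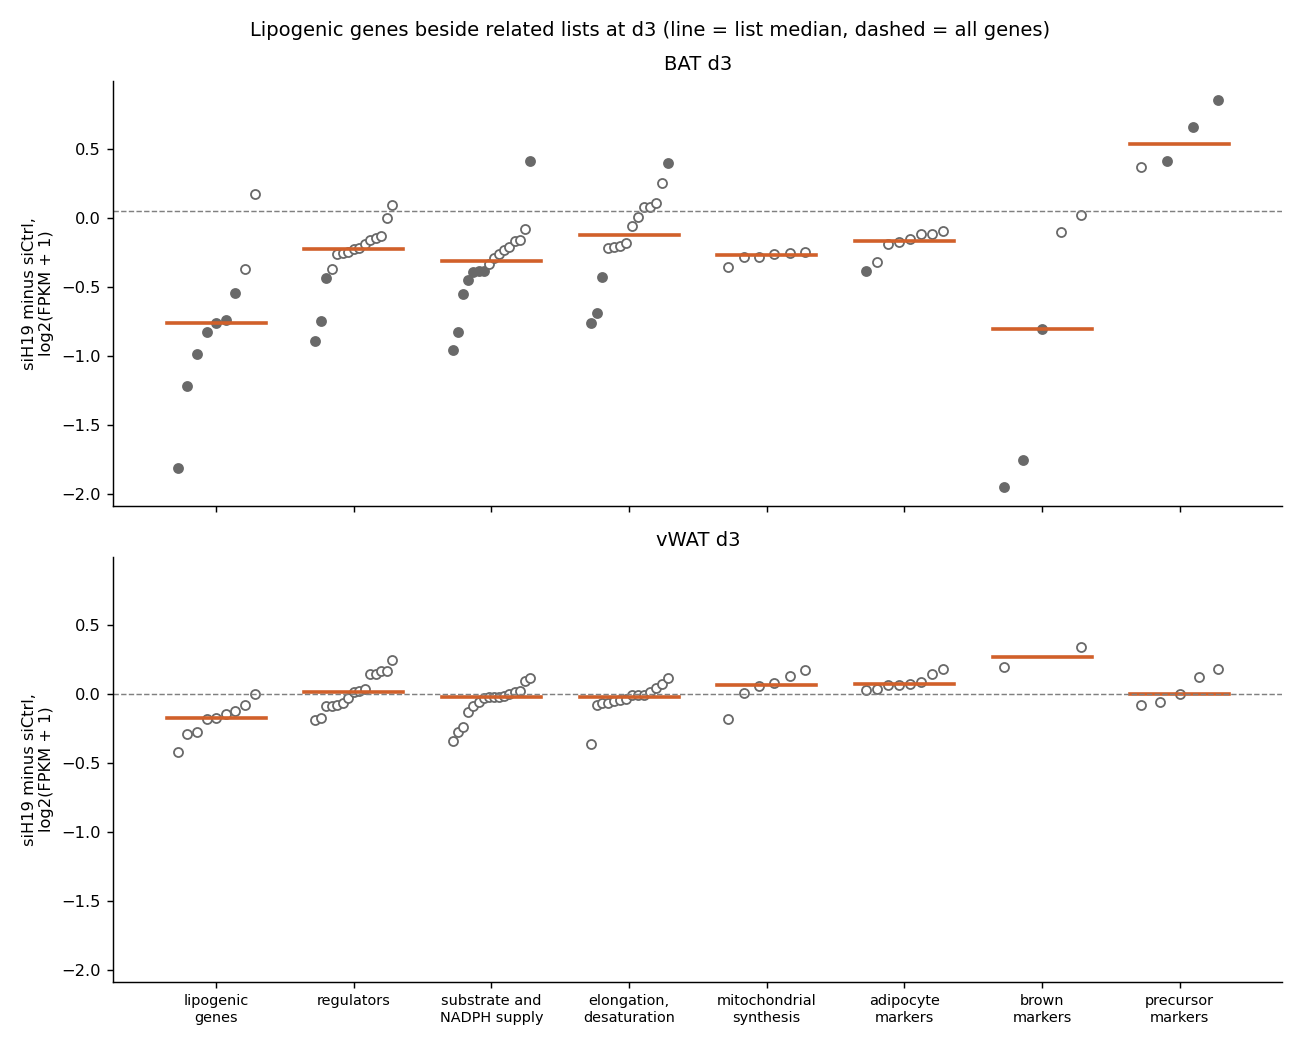
Difference between siH19 and siCtrl at d3 on the log2(FPKM + 1) scale for the lipogenic genes and 7 related lists in BAT (top) and vWAT (bottom), 1 point per gene tested, filled where called, with a line at each list's median and a dashed line at the median of all genes. The lipogenic median is -0.76 in BAT and -0.18 in vWAT, and that of the adipocyte markers -0.16 and 0.07.

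Over the 24 libraries, which share depots, days and siRNAs, the genes most like the mean of the 9 (z-scores of log2(FPKM + 1)) were Srebf1, Chpt1, Klhdc7a, Dhdh and Agpat2, at Pearson r = 0.992 to 0.993. Agpat2, an enzyme of triglyceride and phospholipid assembly, averaged 1989 FPKM in BAT siCtrl d3 and 1427 in BAT siH19 d3, and 1346 and 1357 in vWAT. Within the set, Scd2 and Me1 were nearest to each other (r = 0.995), Thrsp and Fasn were nearest to Me1 (0.993 and 0.992), and Acaca to Scd2 (0.994). Acly and Elovl6 were farthest from the mean of the set (0.828 and 0.858) and from each other (0.578). These correlations follow the day of collection first, since all 9 genes averaged more at d3 than at d0.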

How the data were processed

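The deposited table held FPKM per gene and library, which the authors made with Cufflinks; per the labels, the submitters' processing notes name FastQC 0.10.1, TopHat2 2.0.10, STAR, Cufflinks 2.2.1, DESeq2 and R 3.2.2 on GRCm38.p5, while the study's methods name another Cufflinks version. Libraries were poly-A enriched and strand-specific. Total counts are not given in the sources used here, so the depth is unknown, no interval or detection floor was set, and relative depths read from the lowest FPKM steps were 0.826 to 0.983 for BAT and 1.02 to 1.17 for vWAT. All 24 libraries were grouped by tissue, siRNA and day from the labels. Genes at 1 FPKM or more in at least 3 libraries of a fit were tested with limma 3.58.1 (R 4.3.3; intensity trend, Benjamini-Hochberg adjustment over all genes tested) on log2(FPKM + 1), which understates changes of low genes. Differences used the 6 libraries concerned and interactions 12. Of 49452 genes, 20695 had a symbol in the table and 28503 were named by ID. Ratios were compared by exact permutation tests. The fit was tested on simulated data. Alternatives were pseudocounts, filter, scaling, trend, all 24 libraries, the replicate number as a block, thresholds and leaving out each library. Named genes were all 9 members and, from each related list, up to 3 called genes of largest change each way in the siRNA comparisons at d3 and in d3 against d0 with siCtrl, with Srebf1, Mlxipl, Nr1h3, Mid1ip1, Slc25a1, Acss2, Hr and Klf9 always; markers, Pparg, Cebpa and genes named at d0 were picked after their values were seen. Members and lists were chosen with earlier results of these data known.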

Additional observations from a re-analysis of the deposited data

Results flagged for a closer look

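The results here are differences between 2 differences that passed the limma test of the interaction (adjusted p under 0.05), all on the log2(FPKM + 1) scale. They share libraries with each other.

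Between depots, the siRNA difference at d3 was lower in BAT than in vWAT for Thrsp (-1.68), Acacb (-0.80), Fasn (-0.80), Acly (-0.54), Me1 (-0.45), Scd1 (-0.40) and Scd2 (-0.28). In siCtrl the rise from d0 to d3 was larger in BAT than in vWAT for Scd1 (3.41), Acacb (1.73), Fasn (1.22), Thrsp (1.20), Acaca (1.11), Scd2 (1.09), Me1 (1.08) and Elovl6 (0.60), with Acacb in both depots and Thrsp in BAT passing the filter only through d3. Depot, medium and library code cannot be told apart in either.

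Between days, the siRNA difference in BAT was lower at d3 than at d0 for Thrsp (-1.74), Fasn (-1.04), Acly (-0.92), Acacb (-0.88) and Me1 (-0.78). Thrsp and Acacb lay below 1 FPKM in BAT at d0 and entered this test only through d3, and neither was called with a pseudocount of 0.1 (adjusted p = 0.0550 and 0.0677). In vWAT that of Scd1 was less negative at d3 than at d0 (0.71).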

How the results depend on the processing

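The 7 calls of BAT at d3 with siH19 (Thrsp, Fasn, Acacb, Acly, Acaca, Me1 and Scd1) held under each alternative run. Over all members and comparisons, 1091 of the values with 1 library left out kept their side of the threshold, 9 gained and 22 lost a call. Under the other settings 1199 kept theirs, 17 gained and 10 lost a call. No value called in either fit changed direction. Some uncalled values did, such as Elovl6 with siH19 in BAT at d0 (-0.06 to 0.17 with a library left out). From d0 to d3 in BAT siCtrl the 9 calls became 7 without a d3 library, since Thrsp and Acacb then missed the filter.

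The number of members called with siH19 in BAT at d0, 1, became 0 with no filter, with the replicate block and with any library left out (0 to 0). In vWAT at d0, also 1, it was 3 at an unadjusted p, 0 with no filter, 2 with all 24 libraries in the fit, 0 with the replicate block and 0 to 1 with a library left out. In vWAT at d3 it was 1 at an unadjusted p. Between BAT and vWAT it was 3 to 5 in siCtrl at d3 with a library left out, 4 in siH19 at d0 with all 24 libraries and 2 to 4 with one left out, and 5 in siH19 at d3 with no minimum fold. For the interactions it was 1 for depot by siRNA at d0 with all 24 libraries and 0 to 1 with a library left out, 3 for day by siRNA in BAT with a pseudocount of 0.1, and 1 to 2 for day by siRNA in vWAT with a library left out. Apart from the lost Scd1 calls at d0 and Acaca, whose depot by siRNA interaction at d3 was called (adjusted p = 0.0221), the replicate block changed no call of a member. Scd2 lost that interaction with all 24 libraries (adjusted p = 0.0504).

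Same-numbered libraries deviated together at r = -0.143 to 0.0880, so the numbers were taken as names.

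With median-ratio scaling the ratio of the summed FPKM of the 9 genes was 0.599 for siH19 in BAT at d3, 27.6 for d3 against d0 in BAT siCtrl, and 0.350, 1.39 and 0.927 for BAT against vWAT in siCtrl d0, siCtrl d3 and siH19 d3. That of Fasn, Acaca, Acly, Elovl6 and Me1 was 10.3 for d3 against d0 in BAT siCtrl and 0.758, 1.49 and 0.928 for BAT against vWAT in siCtrl d0, siCtrl d3 and siH19 d0. Without scaling these ratios were 9.73, 0.694, 1.35 and 0.856 in the same order. With a pseudocount of 0.1 the log2 ratio of Acaca to Acacb differed by 0.42 for siH19 in vWAT at d0 and, for d3 against d0, by -1.49 in BAT siCtrl, -1.19 in BAT siH19, -0.68 in vWAT siCtrl and -1.08 in vWAT siH19, where it had been 0.32 with a pseudocount of 1; Acacb lay below 1.3 FPKM in each d0 library. Unknown depth limits what can be said of genes near 1 FPKM.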
